A study of Schizosaccharomyces pombe with 3 samples.

Results

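The 80 large ribosomal subunit protein genes of the fission yeast Schizosaccharomyces pombe were taken from the 5113 nuclear protein-coding genes of the RefSeq annotation of assembly ASM294v3. A gene was a member when its symbol was rpl followed by digits, or rpp followed by exactly 3 digits. The rule used names and no measured value. The members encode 44 proteins, of which 12 have 1 gene, 28 have 2 genes and 4 have 3 genes. The symbols rpl35A01, rpl35A02 and rpp0 also belong to large subunit proteins but fall outside the rule.

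The study profiled chromatin by immunoprecipitation and sequencing (ChIP-seq) in log-phase cells of strain 972 h- grown in YEA medium with 2% glucose. Its bead control was untagged chromatin put on beads with no antibody, its Pol II library came from untagged chromatin and the antibody CTD(4H8), which binds the C-terminal domain of the polymerase (Pol II), and its Med7 library was chromatin of cells with a TAP tag on the Mediator subunit Med7, put on IgG beads. The study asked where Mediator and Pol II sit on the genome in relation to centromeres. Each group has 1 library, so no difference below has a replicate check and each fold compares libraries, not conditions. The sample label of the Med7 library also names a Med7 antibody joined to the IgG beads, whereas the series' design names only tagged cells and IgG beads, and the text follows the design. The bead control carries neither the tag nor the IgG beads of the Med7 library, so a Med7 fold cannot tell the tag or the beads apart from Med7. Both ChIP libraries were divided by the same bead control.

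The large subunit of the ribosome, called 60S, joins amino acids and holds the tunnel through which the new chain leaves. Its protein genes are among the most heavily transcribed genes of a growing yeast cell. In fission yeast many ribosomal protein promoters carry a HomolD box, which takes the place of a TATA box, and some carry a HomolE box upstream of it. Mediator is a large complex that links regulators bound upstream of a gene to Pol II at its start.

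Nuclear reads outside the ribosomal DNA numbered 630825 for the control, 1687058 for Pol II and 696101 for Med7. Values are given as RPM, the usual scale of reads at equal depth, based on these totals. A fold is ChIP RPM over control RPM in the same window, with an exact conditional binomial 95% interval that covers counting error only. A gene was called high when its fold was at least 2 and the whole interval above 1, and low when its fold was at most 0.5 and the whole interval below 1. The median member had 40 control reads in its transcript and 24 in its promoter window, which runs from 500 bp before to 100 bp after the transcript start. Promoter folds are therefore less precise than transcript folds.

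The members are short genes, with a median transcript of 686 bp against 1773 bp over all protein-coding genes. They lie on all 3 chromosomes, 32 on chromosome I, 30 on II and 18 on III. Of the 80, 40 have 1 coding exon. The transcripts of 18 share bases with another annotated protein-coding transcript. Reads there cannot be assigned to either gene, because the reads of a ChIP library carry no strand of transcription.

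Pol II reads were above the bead control in the transcripts of nearly all measured large subunit genes. Of the 72 measured, 47 were high and 0 were low, and 66 had an interval wholly above 1. Over all protein-coding genes tested, 6.82% were high and 11.5% were low. The median fold of the members was 2.16, with quartiles of 1.90 and 2.62, and their median log2 fold was 1.10 against -0.45 over all genes. The small subunit genes, the rps genes that encode the other ribosomal subunit, gave like values: 37 of 53 measured were high, with a median log2 fold of 1.24.

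The highest member was rpl39 on chromosome III, which encodes a very small protein that lines the exit tunnel. Its transcript held 16 control reads (25.4 RPM), 218 Pol II reads (129 RPM) and 25 Med7 reads (35.9 RPM). The Pol II fold was 5.09 (95% interval 3.07 to 9.07), while the Med7 fold of 1.42 had an interval from 0.727 to 2.84 that holds 1. The second was rpl22, the gene for eL22 on the outer face of the subunit. It held 34 reads or 53.9 RPM in the control, 412 reads or 244 RPM for Pol II and 29 reads or 41.7 RPM for Med7, a Pol II fold of 4.53 (3.19 to 6.63). The third was rpl4301, a gene for the zinc-binding protein eL43, with 36.5 RPM in the control, 142 RPM for Pol II and 25.9 RPM for Med7 and a Pol II fold of 3.89 (2.53 to 6.25). In all of these the Pol II library stood well above both other libraries, and the control and Med7 levels lay close together.

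The next places went to rpl6 at 3.49-fold (2.60 to 4.77), rpl13 at 3.38-fold (2.44 to 4.82) and rpl8 at 3.34-fold (2.56 to 4.43), which encode eL6, eL13 and eL8. The stalk gene rpp203 reached 3.34-fold (1.88 to 6.45), and rpl801, a gene for uL2 near the catalytic centre, 3.27-fold (2.36 to 4.66). The intervals of these 8 genes overlap, so their order is not resolved by the counts. All 888 bp of the rpl6 transcript are shared with str2 on the opposite strand, and all 522 bp of rpp203 with SPAC1071.09C, also on the opposite strand. Their coding spans are also wholly shared with these genes, 588 bp in rpl6 and 427 bp in rpp203, so no part of either can be counted free of the overlap.

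At the other end, 5 members had an interval that holds 1: rpl2301 at 1.40-fold, rpl2101 at 1.38-fold, rpl3802 at 1.37-fold, rpl3402 at 1.31-fold (0.918 over its coding span) and rpl2801 at 1.24-fold (0.857 to 1.83). The last of these encodes uL15, the protein in which budding yeast acquires cycloheximide resistance. Next above them were rpl1601 at 1.51-fold and rpl802 at 1.58-fold, both with intervals above 1. Each of these 7 genes has a paralogue that encodes the same protein.

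The lowest member, and the only one measured with an interval below 1, was rpl1603, 1 of 3 genes for uL13. Its transcript held 155 reads or 246 RPM in the control, 271 reads or 161 RPM for Pol II and 141 reads or 203 RPM for Med7. The Pol II fold was 0.654 (0.535 to 0.802). This is the longest annotated transcript of the set, 2698 bp, and all of it is shared with apl1 on the opposite strand, which was itself at 0.644-fold. Over its coding span of chromosome II, 3443267 to 3443918, rpl1603 was at 0.833-fold (0.552 to 1.28), an interval that holds 1. All 652 bp of that span are shared with apl1 as well.

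**Figure D1:**
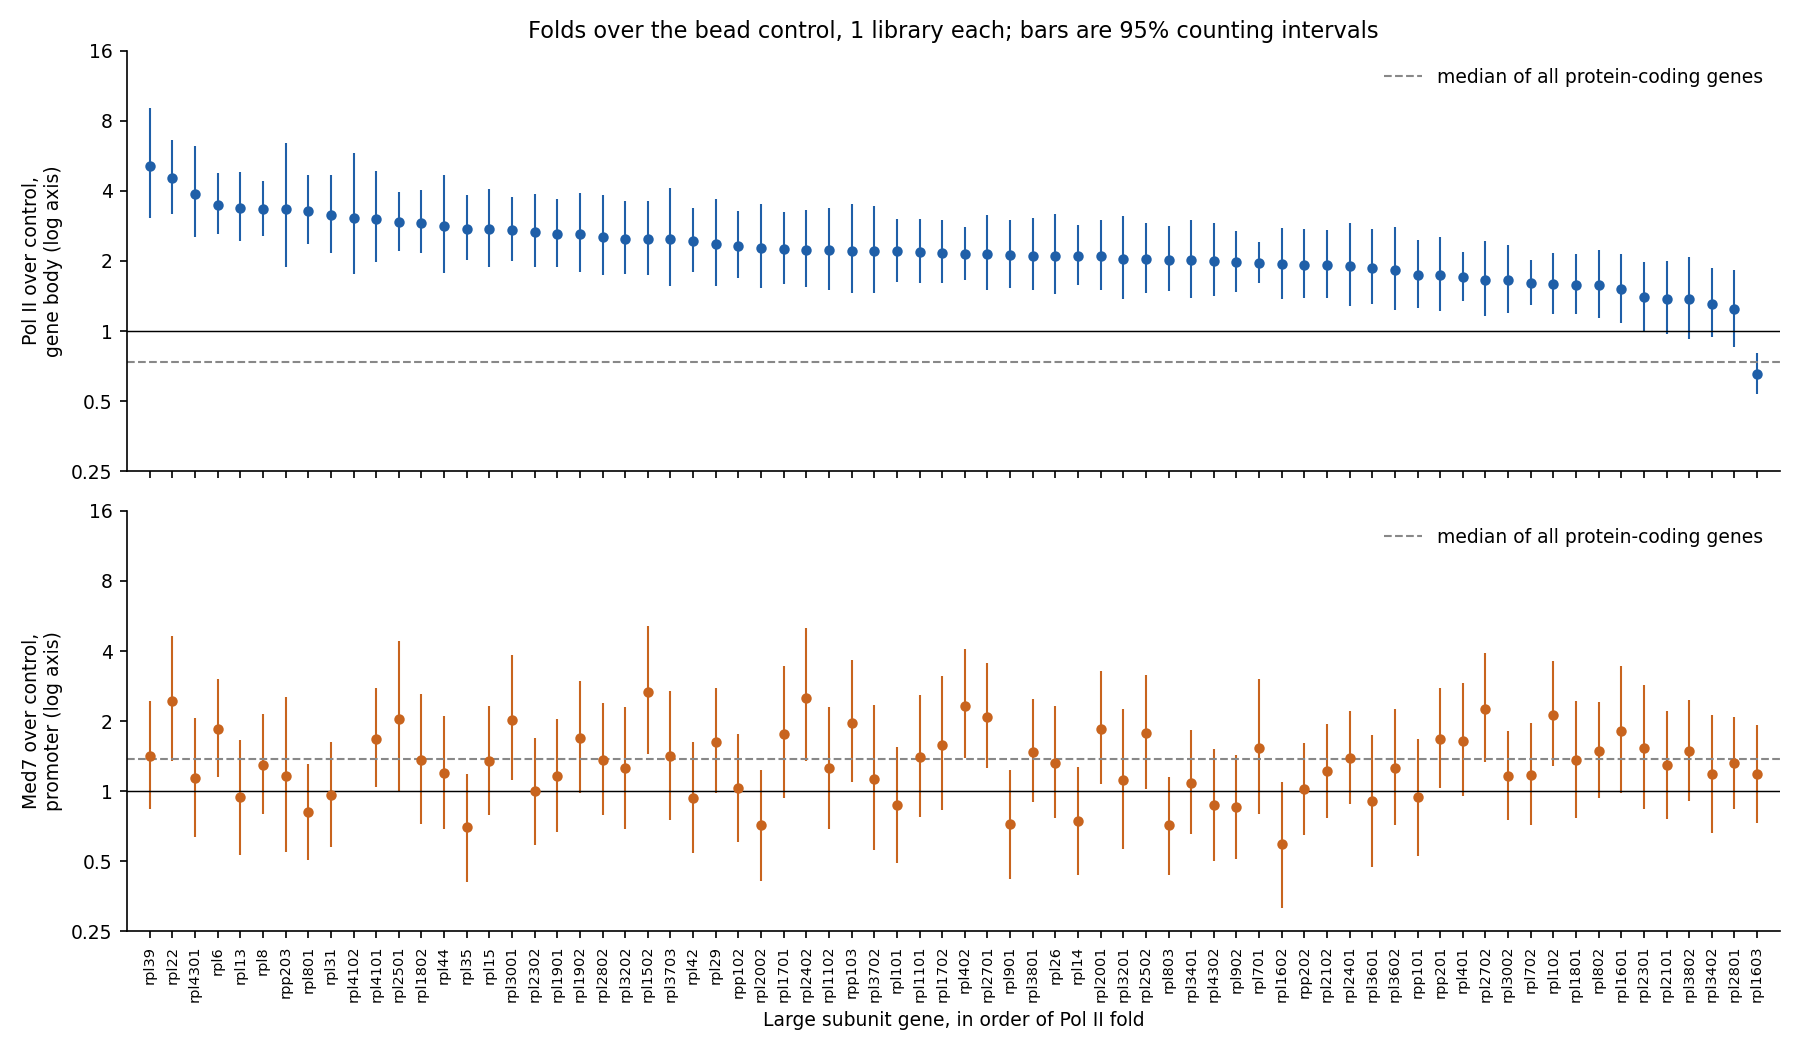
Fold over the bead control for each measured large subunit gene on log axes, as Pol II in the transcript above and Med7 in the promoter window below, 1 library each, with 95% counting intervals as bars and the median of all protein-coding genes as a dashed line. Pol II folds run from 5.09 at rpl39 to 0.654 at rpl1603 and lie above the dashed line in all but rpl1603, whereas Med7 folds lie on both sides of theirs. Genes not measured for Pol II in the transcript are left out of both panels, also where their promoter window was measured. Among the genes drawn, rpl4102 has no Med7 point, because its promoter window was not measured.

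The 8 members left unmeasured in the transcript are the gene pairs for 4 proteins: rpl1001 and rpl1002, rpl1201 and rpl1202, rpl301 and rpl302, and rpl501 and rpl502. In each of them under 90% of the positions start a 45-base sequence found once in the genome, from 21.5% in rpl1201 to 89.1% in rpl501. The protein of rpl5 binds the 5S RNA, that of rpl3 reaches the catalytic centre, that of rpl10 joins the subunit late, and that of rpl12 lies at the base of the stalk. Over the positions left, their Pol II folds ran from 1.45 in rpl302 to 2.66 in rpl501, within the range of the measured members. These folds come from the same positions in both libraries and enter no count.

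The acidic stalk proteins P1 and P2 recruit translation factors to the ribosome and have 6 genes here. For P1, rpp101 was at 1.74-fold (1.26 to 2.46), rpp102 at 2.33-fold (1.69 to 3.26) and rpp103 at 2.21-fold (1.46 to 3.50). For P2, rpp201 was at 1.73-fold (1.21 to 2.53) and rpp202 at 1.93-fold (1.39 to 2.74), beside rpp203 given above. Of the 6, 3 were high, and their median fold of 2.07 lay close to the 2.16 of the other large subunit genes. Of the genes outside the rule, rpp0, whose protein anchors P1 and P2, was at 2.24-fold (1.84 to 2.74), rpl35A01 at 2.13-fold (1.498 to 3.11) and rpl35A02 at 1.30-fold (0.889 to 1.956).

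Genes that are the sole source of their protein had a higher median Pol II fold than genes with a paralogue. The median fold was 2.98 over the 12 genes of 1-gene proteins, 2.13 over 48 measured genes of 2-gene proteins and 1.93 over 12 genes of 3-gene proteins. All 12 sole genes were high, from 2.10 to 5.09, against 30 of 48 and 5 of 12. The ranges overlap: the 2-gene proteins reached 3.89 and the 3-gene proteins 3.34. With 54 members that share no transcript bases, sole genes kept the highest median at 3.14 in 9 genes, against 2.10 in 37 and 1.84 in 8. Over coding spans the order of the other classes turned, with 2.87, 2.07 and 2.10. There 11 of 12 sole genes were high, against 28 of 48 and 7 of 12. With reads counted at their 5' ends 10 of 12 sole genes were high, against 26 of 48 and 5 of 12. By exon structure the medians were 2.18 over 33 genes with 1 coding exon and 2.11 over 39 with more.

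Summed over the copies of each protein, the difference between the classes took another form. Here the Pol II minus control density, in RPM per kb of uniquely mappable transcript, was added over a protein's genes. It had a median of 199 over the 40 proteins with all copies measured. The medians were 177 for 12 1-gene, 204 for 24 2-gene and 300.2 for 4 3-gene proteins. Their ranges overlap, at 115 to 314, 141 to 359 and 94.3 to 314, and a sum over more copies has more terms. The highest was eL43 (rpl43) at 359 ± 39.2 (1 SE of counting, 2 genes), close to L41 (rpl41) at 356 ± 41.8 (2 genes). All of rpl4302 is shared with ucp8 and all of rpl4101 with chl1, so both sums include reads that cannot be assigned. The single gene rpl22 gave 314 ± 25.04, as much as the 3 genes of P2 at 314 ± 41.6. The lowest was uL13 (rpl16) at 94.3 ± 26.0, a sum that includes rpl1603, followed by eL14 (rpl14) at 115 ± 18.6 and uL24 (rpl26) at 122 ± 26.2. The highest over the lowest protein was 3.81 (95% interval 2.13 to 6.81, counting error only). These proteins were picked as the extremes of 40, which the interval does not allow for, so a ratio above 1 is not a finding in itself.

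**Figure D2:**
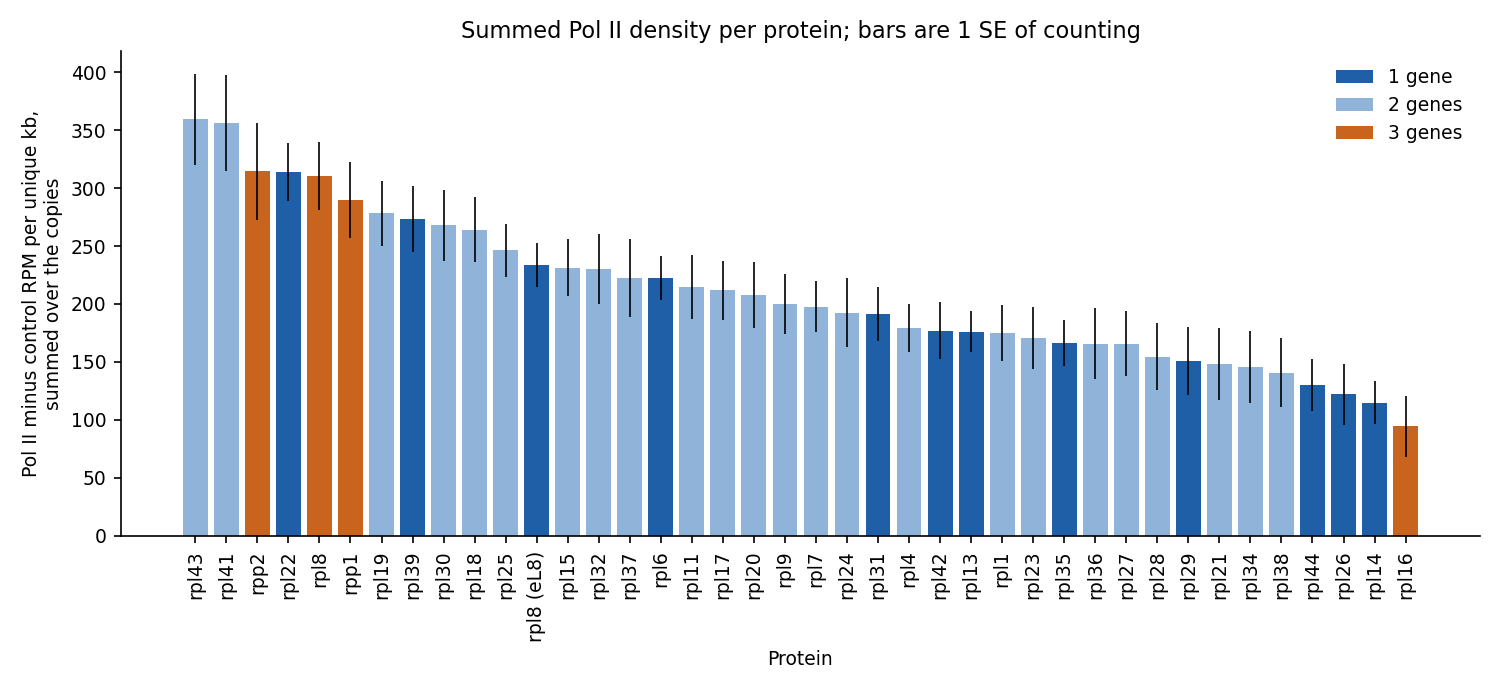
Pol II minus control density for 40 large subunit proteins, in RPM per unique kb of transcript summed over the genes of a protein, coloured by the number of genes, with bars of 1 SE of counting from 1 library each. Density runs from 359 for rpl43 to 94.3 for rpl16, and neighbouring bars overlap in their errors.

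The upstream sequences of the 3 members with the highest Pol II folds, and of the rpl16 pair farthest apart, show the boxes of this gene class. Each line gives the 160 bases that end just before the annotated transcript start, 5' to 3' on the gene's strand, from the RefSeq ASM294v3 genome. Capitals mark exact matches to the HomolD core CAGTCAC or to HomolE CCCTACCCT, on either strand. The windows are chrIII:1640856-1641015 (+) for rpl39, chrI:5314664-5314823 (+) for rpl22, chrII:259991-260150 (-) for rpl4301, chrI:4097166-4097325 (+) for rpl1602 and chrII:3443094-3443253 (+) for rpl1603. The last overlaps 1 other transcript in part. Of the rpl1603 promoter window from 500 bp before to 100 bp after the start, 129 bp are shared with other protein-coding transcripts.
rpl39: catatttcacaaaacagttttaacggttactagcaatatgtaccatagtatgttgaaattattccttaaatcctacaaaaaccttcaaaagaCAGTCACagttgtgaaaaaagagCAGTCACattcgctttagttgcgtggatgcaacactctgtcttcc
rpl22: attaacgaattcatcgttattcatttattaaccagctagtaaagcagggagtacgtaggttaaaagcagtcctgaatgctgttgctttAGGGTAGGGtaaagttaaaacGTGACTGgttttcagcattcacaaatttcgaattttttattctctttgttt
rpl4301: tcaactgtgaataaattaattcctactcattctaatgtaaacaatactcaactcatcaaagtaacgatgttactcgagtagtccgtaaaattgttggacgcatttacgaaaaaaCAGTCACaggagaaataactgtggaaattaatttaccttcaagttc
rpl1602: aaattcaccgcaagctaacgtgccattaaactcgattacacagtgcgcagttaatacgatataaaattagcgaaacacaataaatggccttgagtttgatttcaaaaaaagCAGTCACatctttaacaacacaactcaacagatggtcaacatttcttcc
rpl1603: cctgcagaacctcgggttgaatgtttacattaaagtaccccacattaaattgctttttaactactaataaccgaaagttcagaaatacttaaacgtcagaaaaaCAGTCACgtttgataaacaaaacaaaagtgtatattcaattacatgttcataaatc

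All 5 hold the HomolD core in this window. The rpl39 window holds it 2 times, that of rpl22 has it on the reverse strand with a HomolE match before it, and those of rpl4301, rpl1602 and rpl1603 hold it once. So the pair farthest apart for Pol II, rpl1602 and rpl1603, both carry the core letters. A match is a description of the letters and not a measured site.

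Among all 80 members, 73 (91.2%) held CAGTCAC on either strand from 250 bp before to 50 bp after the start. The share was 90.9% of the 55 small subunit genes and 4.71% of 5112 protein-coding promoters. The longer CAGTCACA, which contains the core, was in 53 members (66.2%) against 2.68% of all promoters, and CCCTACCCT was in 25 (31.2%) against 41.8% of small subunit genes and 1.53% of all promoters. The HomolD letters sat at a fixed place: their first base had a median position of -50 with quartiles of -56 and -47, and 71 lay between -80 and -40. These positions take 1 match for each of the 73 members, of which 6 hold more than 1. The core was on the forward strand in 48 and on the reverse strand in 25. In the 21 members with both boxes HomolE lay upstream of HomolD in 21, with a median of 20 bp (11 to 30) from the first base of the one to the first base of the other.

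**Figure D3:**
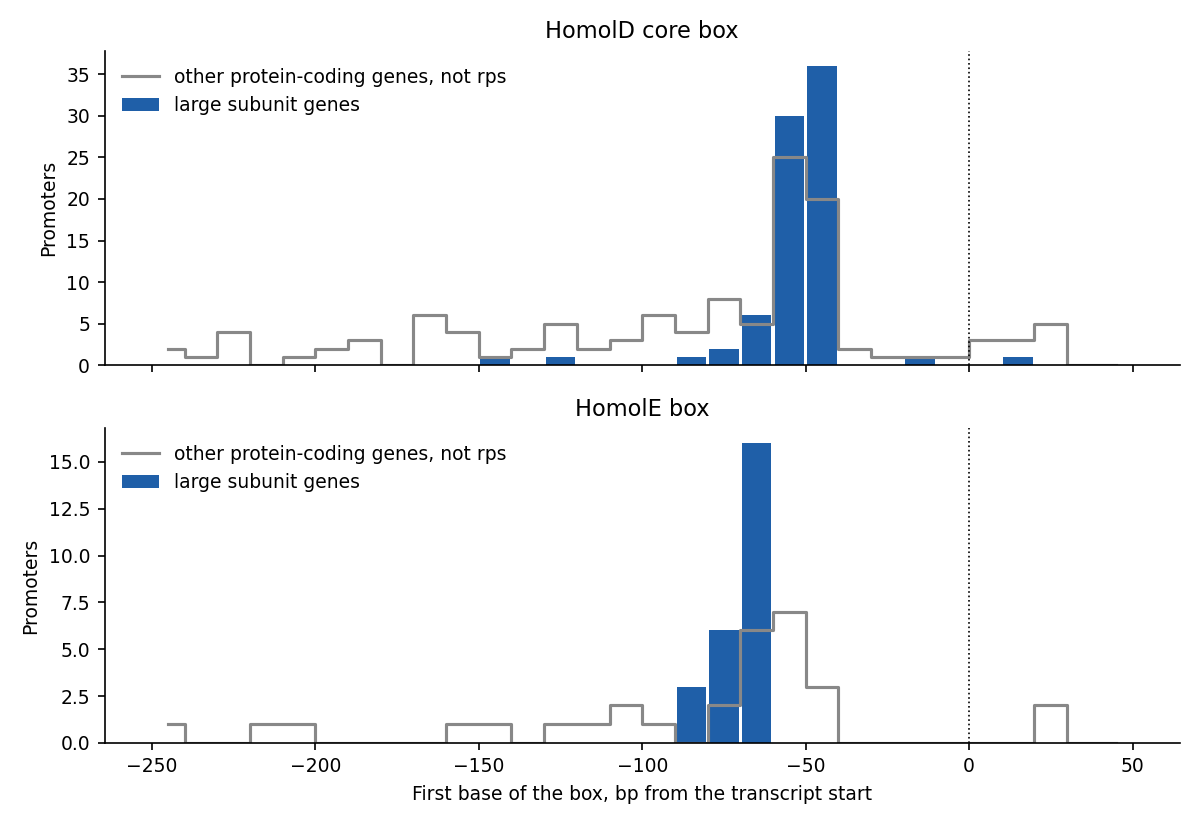
Number of promoters by position of the first base of the box from the transcript start, in bins of 10 bp, for HomolD above and HomolE below. Bars are large subunit genes and the line is all other protein-coding genes except rps genes. The HomolD bars pile up in the bins starting at -60 and -50, with 30 and 36 matches.

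Only rpl1601, rpl2402 and rpl3601 held neither set of letters in this window, and rpl2501, rpl31, rpp101 and rpp202 held HomolE alone. The Pol II median was 2.22 over 18 measured genes with both boxes, 2.11 over 47 with HomolD alone, 2.43 over 4 with HomolE alone and 1.87 over 3 with neither. The Med7 promoter medians were 1.36 (21 genes), 1.33 (50), 0.994 (4) and 1.81 (3).

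Med7 reads at the promoters of large subunit genes stood about as far above the control as at the median promoter. Of 78 measured, 8 were high and 0 were low, beside 14% high and 0.263% low over all protein-coding promoters. The members' median log2 fold was 0.42 and that of all genes 0.45, and 63 of the 78 intervals held 1. For the small subunit genes 6 of 55 were high, with a median of 0.45.

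The highest Med7 fold was at rpl1502, a gene for eL15 near the exit tunnel. Its promoter window held 15 control reads, 137 Pol II reads and 44 Med7 reads, a Med7 fold of 2.66 (1.45 to 5.14) and a Pol II fold of 3.42 (2.00 to 6.27). Next came rpl2402 at 2.52 (1.34 to 5.03), with 14 reads in the control, 65 for Pol II and 39 for Med7, and rpl22 at 2.44 (1.34 to 4.63), with 16, 105 and 43 reads. Read numbers differ with library depth, and as folds over the control Pol II was at 1.74 (0.964 to 3.35) for rpl2402, an interval that holds 1, and at 2.45 (1.44 to 4.45) for rpl22. The gene for uL4, rpl402, was at 2.33 (1.38 to 4.06), with 21 control, 54 Pol II and 54 Med7 reads. The remaining high promoters were rpl2702 at 2.24 and rpl2701 at 2.09, the pair for eL27, rpl102 at 2.13, a gene for uL1 of the stalk that guides spent tRNA out, and rpl3001 at 2.03.

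The 5 lowest Med7 promoters were rpl1602 at 0.594 (0.315 to 1.10), rpl35 at 0.699, rpl803 at 0.712, rpl2002 at 0.714 and rpl901 at 0.720. All 5 intervals hold 1, so no member was shown to lie below the control at this depth. The window of rpl1602 held 29 reads in the control, 56 for Pol II and 19 for Med7. With the Med7 library scaled by all its aligned reads, of which 23.8% were mitochondrial, the count of high promoters fell from 8 to 2 and 1 promoter, rpl1602, became low. Windows free of other transcripts left 3 high of 30. In the narrower window from 250 bp before to 50 bp after the start 12 of 67 were high. Over all genes the high count rose there as well, from 692 to 1014. The median log2 fold there was 0.468 in the members and 0.595 over all genes. The high members included rpl22 at 4.98, rpl102 at 3.75, rpl1601 at 3.47 and rpl2001 at 2.38. No longer called in this window were rpl1502 at 1.81, rpl2702 at 1.91, rpl3001 at 1.73 and rpl2402 at 2.57. There rpl35 was at 1.01 and rpl2002 at 0.423.

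Pol II reads in the same promoter windows gave 10 high and 1 low of 78, against 4.45% high and 14% low over all genes, with a median log2 fold of 0.24 against -0.41. The low one was rpl3002, an eL30 gene, with 39 reads in the control, 41 for Pol II and 50 for Med7 and a Pol II fold of 0.393 (0.247 to 0.626). Its paralogue rpl3001 was among the high ones at 2.13 (1.27 to 3.81). The highest, named after its value was seen, was rpl701 at 3.55 (2.12 to 6.37), whose product the annotation describes as an RNase MRP subunit like ribosomal protein L7. Promoter windows of 49 of the 80 members overlap another protein-coding transcript, and among windows that do not, 3 of 30 were high.

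In the transcripts the Med7 library was below the control for most members. Of 72 measured, 0 were high and 4 were low, beside 0.524% high and 0.544% low over all genes. Among the members 16 of 72 intervals lay wholly below 1, against 878 of 4961 over all genes and 13 of 53 for small subunit genes. The low members were rpl29 at 0.403 (0.186 to 0.822), rpl101 at 0.462 (0.276 to 0.755), rpp202 at 0.464 (0.264 to 0.792) and rpl2802 at 0.497 (0.258 to 0.926). For rpl29 this was 27 reads in the control, 170 for Pol II and 12 for Med7. The median Med7 fold was 0.728 in the members and 0.928 over all genes.

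Pooled over the 80 members, Med7 was highest just upstream of the start and lowest inside the transcript. The fold was 2.17 (1.70 to 2.78) in the 50-bp bin starting at -150 and 2.16 (1.71 to 2.76) in that starting at -100, against 1.67 and 1.71 over all genes. In these bins the Med7 level itself was 81.5 and 86.6 RPM per kb, no higher than the 89.0 and 86.6 of all genes, while the control level was 37.6 and 40.03 against 53.3 and 50.7. The members' higher fold at this place comes with a lower control level. In the sixth of 10 equal parts of the transcript the Med7 fold was 0.573 (0.483 to 0.677), with 55.0 RPM per kb against 73.5 over all genes.

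Pol II was higher towards the end of the transcript than at its start. The pooled fold was 1.25 in the bin starting at -150, 1.99 (1.64 to 2.43) in that starting at -50, 1.70 (1.498 to 1.92) in the first part of the transcript and 2.61 (2.33 to 2.93) in the tenth. It was 2.45 in the first 50 bp after the annotated end and had fallen to 0.852 (0.733 to 0.992) in the bin starting 300 bp downstream. Over all genes the fold went from 0.884 in the first part to 1.26 in the tenth. The Pol II level in the tenth part was 235 RPM per kb in the members and 104 over all genes.

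**Figure D4:**
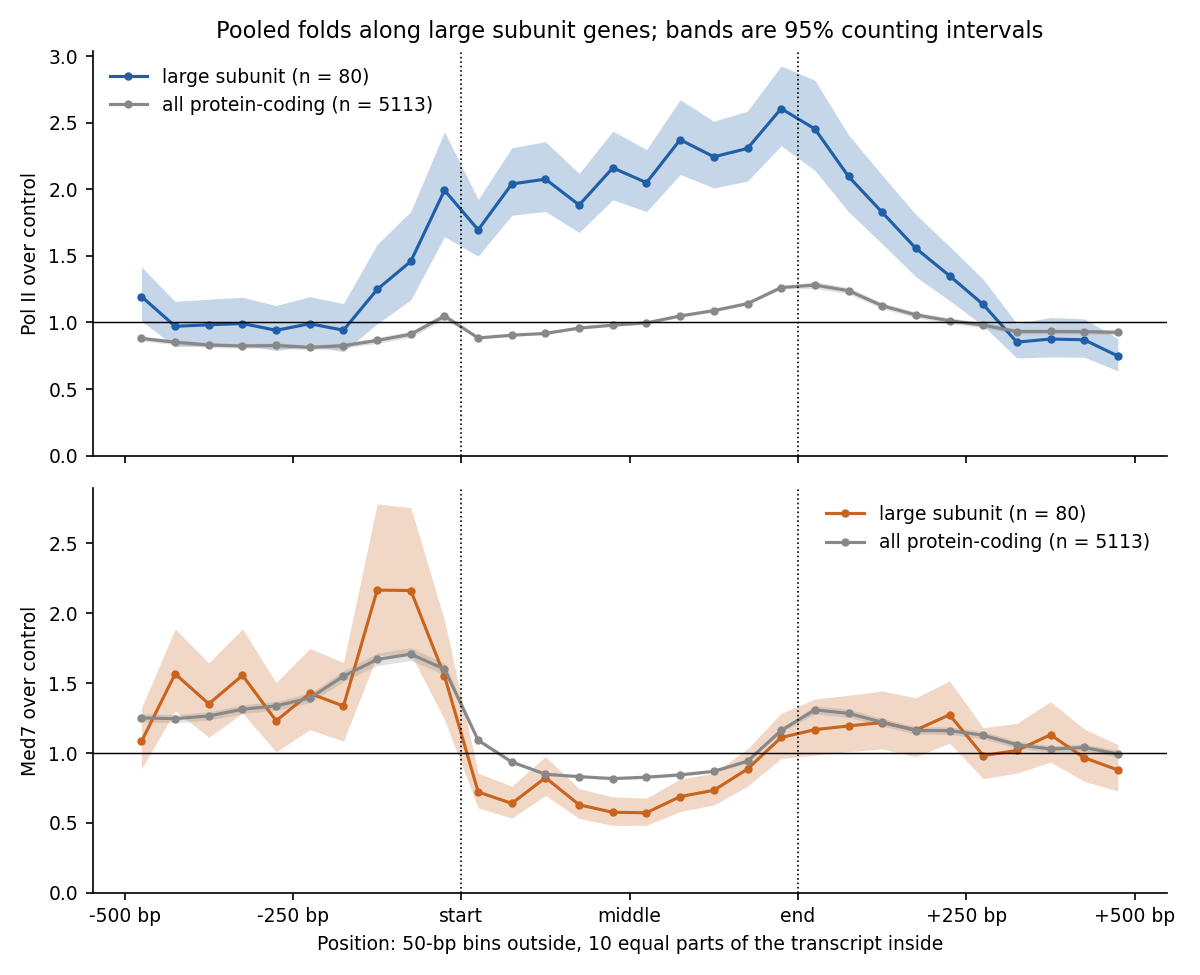
Pooled fold over the bead control along the 80 large subunit genes and along all 5113 protein-coding genes, for Pol II above and Med7 below, in 50-bp bins outside the transcript and 10 equal parts inside it, with bands for the 95% counting interval. Pol II climbs to 2.61 in the last part of the transcripts, and Med7 peaks at 2.17 upstream of the start and dips to 0.573 inside.

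Paralogous copies mostly had like Pol II folds, with some exceptions. In 36 pairs of measured copies from 28 proteins the median ratio of the higher to the lower fold was 1.29, and 27 intervals of the ratio held 1. Their coding sequences were 66.1% to 93.04% identical, so that reads could still be placed. A pair was counted as apart when the ratio was 1.5 or more and its 95% interval lay above 1, and 9 pairs were. Since the higher copy is always put on top, a ratio above 1 is not a finding in itself.

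The widest gap was in the genes for uL13, where rpl1602 stood 2.96 times (2.01 to 4.36) and rpl1601 2.31 times (1.58 to 3.39) above rpl1603. Over coding spans these ratios were 2.16 and 1.61, and the second was no longer apart. For rpl1602 the transcript held 65.0 RPM in the control, 126 RPM for Pol II and 56.0 RPM for Med7, and its fold of 1.93 (1.38 to 2.77) is below the median of the set. Of the 3 uL13 genes, rpl1603 alone shares transcript bases with another gene.

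The copies of uL2 were apart at rpl801 over rpl802 by 2.07 (1.31 to 3.28) and over rpl803 by 1.61 (1.03 to 2.53). The pair for uL15 was apart by 2.05 (1.22 to 3.46), with rpl2802 at 2.55-fold and rpl2801 at 1.24-fold. In RPM, rpl2802 had 49.1 in the control, 125 for Pol II and 24.4 for Med7, and rpl2801 had 60.2, 74.7 and 38.8. The rpl2802 copy was thus higher for Pol II and lower in the control and Med7 libraries. The other pairs were rpl4301 over rpl4302 at 1.95 (1.12 to 3.37), rpl2302 over rpl2301 at 1.91 (1.19 to 3.08), rpl1802 over rpl1801 at 1.84 (1.21 to 2.80), and rpl3001 over rpl3002 at 1.64 (1.05 to 2.55). All of rpl1802 and rpl4302 is shared with another transcript.

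Some of these gaps depend on the control. Compared as Pol II RPM per kb with no division by the control, 13 pairs were apart and 6 of the 9 were among them. The 3 that were not were rpl4301 over rpl4302, rpl2302 over rpl2301 and rpl801 over rpl803. Where no copy shares bases with another transcript, 4 of 20 pairs were apart.

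**Figure D5:**
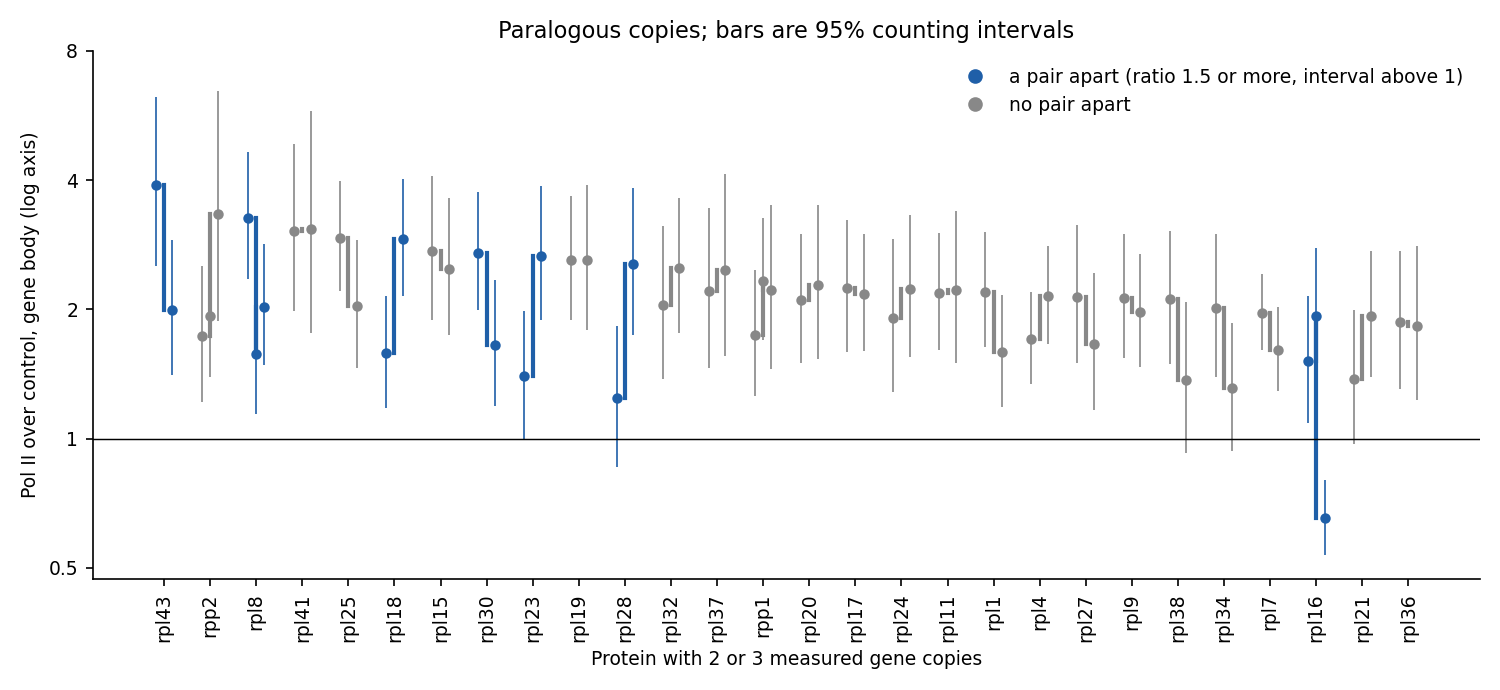
Pol II fold in the transcript for each measured copy of 28 proteins with 2 or 3 measured genes, on a log axis, with thin bars for 95% counting intervals and a thick bar joining the highest and lowest copy. Blue marks proteins with a pair apart, and the widest span is that of rpl16, from 1.93 to 0.654.

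In Med7 promoter fold, 4 of 38 measured pairs were apart, and the median ratio was 1.35. These were rpl1601 over rpl1602 at 3.05 (1.34 to 6.94), rpl2001 over rpl2002 at 2.60 (1.25 to 5.41), rpl102 over rpl101 at 2.44 (1.18 to 5.04) and rpl802 over rpl803 at 2.09 (1.11 to 3.96). The first pair had 17 control and 34 Med7 reads at rpl1601 against 29 and 19 at rpl1602. Without division by the control 7 pairs were apart, with 3 of the 4 among them. At 60 or more reads per window, 1 of the 10 pairs left was apart. In the narrower promoter window the first 3 ratios were 5.37, 5.62 and 4.14, the last, at 2.30, was no longer apart, and 5 of 30 pairs were apart.

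Genes named for ribosomal protein gene regulation elsewhere were measured too. The gene rrn7 encodes the fission yeast protein that binds HomolD, and fhl1 and sfp1 are named after budding yeast regulators of these genes. Their own transcripts had Pol II folds of 0.798 (0.630 to 1.02) for rrn7, 0.518 (0.419 to 0.642) for fhl1 and 3.31 (2.86 to 3.85) for sfp1. The Med7 promoter folds were 0.906, 0.906 and 1.59, all with intervals that hold 1.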

How the data were processed

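The authors deposited 1 list of aligned reads per library, a position and strand per read, and no score, signal or count. The submitters' processing notes name Bowtie 0.12.7 without saying for which step. Not given in the sources used here are the build, the mismatches allowed and the handling of repeated hits. Of the nuclear reads 99.1% to 99.2% spanned 45 bases, and 0 began at a 45-base sequence found more than once in ASM294v3, against 122 to 285 with starts moved by 1 base, so positions were read on that assembly as uniquely placed. Duplicates made up 12.8% to 16.8%.

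Reads were counted 72 bp downstream of their 5' end, from a fragment of 145 bp given by strand cross-correlation, which was weak in the control (0.0033) and in Med7 (0.0046). A window was measured with at least 20 reads in both libraries together and at least 90% unique positions, and folds used a pseudocount of 0.5 reads on the log2 scale. Folds were computed for all protein-coding genes. Reads amplified by PCR and not marked by molecular identifiers may be copies, so intervals cover counting error only. Promoter windows of rpl1001 and rpl4102 had too few unique positions.

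Members named with values were the 8 highest and 8 lowest for Pol II, the 5 highest and lowest for Med7 promoters, all high for Med7 or low in any window, all pairs apart, the stalk genes, those unmeasured and the promoters of the top 3 and the widest pair. Paralogues share a protein number, except that rpl8 (eL8) was kept apart from rpl801 to rpl803 (uL2), and rpl15 joined to rpl1502, from their products. The members and lists were chosen with earlier results of these data known. Alternatives were duplicates collapsed, unshifted reads, 2 other scalings, read and uniqueness minimums, other thresholds and windows, windows free of other transcripts, and no control division for pairs. The rules were tested on simulated data. Python 3.11.15, numpy 2.4.6, pandas 2.3.3, scipy 1.17.1, Biopython 1.88 and matplotlib 3.10.9 were used.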

Additional observations from a re-analysis of the deposited data

Results flagged for a closer look

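Reads on the mitochondrial chromosome, which enter no comparison above, made up 7.73% of aligned Pol II reads and 23.8% of aligned Med7 reads, against 6.84% of those of the bead control. They are listed here because both shares lie above the control's. The nuclear totals used for scaling leave them out.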

How the results depend on the processing

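No paired analysis was possible because each group has 1 library. The count of Pol II high transcripts stayed within 1.5 times of 47, HomolD promoters numbered 73 also in the wider window and 53 with CAGTCACA, and the median Med7 promoter log2 fold ran from 0.13 to 0.47 under the alternatives run. The ratio of the highest to the lowest protein was 2.87 with duplicates collapsed, where rpl14 was lowest, and 5.37 over coding spans, where rpl41 was highest. Scaling by the median 1 kb bin raised the median Pol II log2 fold from 1.10 to 1.59 and the Pol II promoters called high from 10 to 28. It shifted all genes by 0.49, so the members stayed 1.55 above the median of all genes, and turned the all-gene split from 339 high and 571 low to 561 and 72. With duplicates collapsed that split was 335 and 328. Scaling by all aligned reads shifted all Med7 promoters by -0.29, from 692 high and 13 low to 250 and 43, and gave 2 members high and 1 low. A 1.5-fold threshold gave 15 Med7 promoters and 18 Pol II promoters high and 1 Pol II transcript low (rpl1603). At 60 reads or more, 4 Med7 promoters were high and 1 pair was apart. Without windows that overlap another transcript, 3 Med7 and 3 Pol II promoters were high, 4 Pol II pairs were apart and 0 Med7 pairs of 6. Without division by the control, an alternative chosen after seeing the data, 7 Med7 pairs were apart. The narrower promoter window gave 12 Med7 promoters high of 67, while the high count over all genes rose from 692 to 1014. Among the members followed singly, rpl1601 and rpl2001 gained a call there, and rpl1502, rpl2402, rpl2702 and rpl3001 lost theirs. Further members that were not followed singly were also high there. Of 292 recomputed values of single genes for Pol II, 268 kept their call, 23 gained one and 1 lost it. Of 151 for Med7, 133 kept it, 6 gained and 12 lost. Of 118 for pairs, 102 kept it and 16 lost it. Many of these values could not change. The minimums and the overlap filter leave a fold as it is, and the scalings cancel in the ratio of a pair. The shares kept therefore overstate how stable the calls are. No called value changed direction, but 2 uncalled ones crossed 1: rpl3402 for Pol II, at 0.918 over its coding span, and rpl35 for Med7, at 1.01 in the narrower window. Depth limits the Med7 promoter calls, with a median of 24 control reads.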
